A study of Mus musculus with 2 samples.

Results

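The nuclear genes for complex III, complex IV, ATP synthase and cytochrome c were described across the deposited gene and transcript tables of a mouse liver. Members were all protein-coding genes whose GENCODE symbol starts with Uqcr, Cox4, Cox5, Cox6, Cox7, Cox8 or Atp5, or is Cyc1 or Cycs. This gave 45 of the 43346 Ensembl genes in the tables, with 9 in complex III, 18 in complex IV, 17 in ATP synthase and 1 for cytochrome c. A second Ensembl identifier that GENCODE M21 gives for Atp5o was not analysed here.

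RNA carrying polyA tails was sequenced from the liver of 1 adult female C57BL/6J mouse, an inbred strain, aged 10 weeks, with no treatment in the labels. The labels describe 2 technical replicate libraries of the same biological replicate, named library 1 and library 2 here, and place library 2 in May 2015 without a date for library 1. With 1 animal and 1 group, levels carry a mean ± SD over the 2 libraries, which is a technical spread and not a spread between animals, and no p-value could be given.

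Complex III passes electrons from ubiquinol to cytochrome c, and complex IV, cytochrome c oxidase, passes them on to oxygen. Both pump protons across the inner mitochondrial membrane, and ATP synthase makes ATP from the return flow of those protons. Each complex mixes subunits from the mitochondrial genome with subunits from nuclear genes. Several nuclear subunits of complex IV come in paired forms, one used by liver and most other tissues and one by heart and skeletal muscle. Liver cells are rich in mitochondria, and their oxidative phosphorylation supplies the ATP for gluconeogenesis and urea synthesis.

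The estimated (expected) counts summed to 23309905 in library 1 and 19525500 in library 2. All 6 hepatocyte markers were detected, and their summed TPM (a length-normalised relative level) was 26731 and 64867. The libraries stood apart by base composition. Over 11980 nuclear protein-coding genes, the rank correlation of the guanine and cytosine (GC) content with the log2 fold of library 2 over library 1 was 0.87. Member levels are therefore given for each library first. Library, date and any difference in handling cannot be told apart.

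Of the 45 members, 38 had a TPM of at least 1 in both libraries, against 39.4% of 21461 nuclear protein-coding genes. The other 7 were Cox7a1, Cox6b2, Cox8b, Cox4i2, Cox7b2, Cox6a2 and Cox8c, all of them tissue forms of complex IV subunits. Of the TPM summed over nuclear protein-coding genes, the members together held 1.54% in library 1 and 1.92% in library 2, a mean of 1.73% ± 0.266 (SD, n = 2). ATP synthase took the largest part, with summed TPM of 2909 and 6753. Complex IV reached 1560 and 4284, and complex III 1255 and 3047. The order of the complexes was the same in both libraries.

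Uqcrb, a small ubiquinol-binding subunit, had the highest mean level in complex III. Its TPM was 749 in library 1 and 472 in library 2 (mean 611 ± 196, SD, n = 2). Uqcrh, the hinge protein that helps cytochrome c1 and cytochrome c meet, had 153 and 529 TPM (mean 341 ± 266). The other small subunits were scarce in library 1 and abundant in library 2. Uqcrq had 44.0 and 447 TPM (mean 246 ± 285), Uqcr10 11.8 and 337 TPM, and Uqcr11 1.5 and 449 TPM (mean 225 ± 316). The core proteins Uqcrc1 and Uqcrc2 hold the complex together and carry no redox centre. Uqcrc2 was steady at 165 and 209 TPM (mean 187 ± 31.2), whereas Uqcrc1 had 33.6 and 193 TPM (mean 113 ± 113). The subunits with redox centres lay near Uqcrc2 in library 2. Uqcrfs1, the Rieske iron-sulphur protein, had 88.8 and 199 TPM (mean 144 ± 78.2), and Cyc1, cytochrome c1, had 8.81 and 211 TPM (mean 110 ± 143). Cycs, the mobile carrier between complexes III and IV, had 61.7 and 47.1 TPM (mean 54.4 ± 10.4), below every complex III subunit in library 2.

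Of the complex IV subunits, Cox6c, Cox6b1, Cox7b and Cox7c had the highest means. Cox6c had 285 and 620 TPM (mean 452 ± 237, SD, n = 2), and Cox6b1, which faces the intermembrane space, had 249 and 608 TPM (mean 429 ± 254). Cox7b ran the other way, with 391 and 250 TPM (mean 320 ± 99.7). Its protein-coding transcripts alone had 37.8 and 234 TPM, and so were higher in library 2. Cox7c had 131 and 479 TPM (mean 305 ± 246). Cox5a, a matrix-side subunit, had the smallest SD of the 11 detected genes in TPM, at 255 and 320 (mean 287 ± 45.8). Cox4i1, the largest nuclear subunit and a site of regulation by ATP, had 23.4 and 493 TPM (mean 258 ± 332). Cox5b, which binds zinc, had 72.3 and 306 TPM. Cox7a2l, a homologue of Cox7a that links complexes III and IV, was the lowest of the 11 by mean, with 38.7 and 128 TPM (mean 83.5 ± 63.4).

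In ATP synthase, Atp5b, the catalytic beta subunit, had the highest mean, with 281 and 999 TPM (mean 640 ± 508, SD, n = 2). Its partner in the catalytic ring, Atp5a1 for the alpha subunit, had 381 and 529 TPM (mean 455 ± 105). Stalk subunits spanned a wide range in library 1. Atp5c1, for the rotating gamma shaft, had 277 and 330 TPM (mean 304 ± 37.6). Of the stator, Atp5f1 had 378 and 320 TPM, Atp5h 212 and 399 TPM, and Atp5j 553 and 378 TPM (mean 466 ± 123). Protein-coding transcripts alone gave the opposite direction for Atp5f1 (10.5 and 221 TPM) and Atp5j (60.7 and 223 TPM). Atp5o, for the stator protein that confers oligomycin sensitivity, had 52.3 and 213 TPM. The delta subunit, which joins the gamma shaft to the membrane rotor, differed most between libraries: Atp5d had 1.64 and 261 TPM, from 28 and 3000 counts. Atp5e, for the epsilon subunit beside it, had 37.3 and 366 TPM. The small membrane subunits spanned a wider range in library 1 than in library 2. Atp5mpl had 272 and 407 TPM (mean 339 ± 95.4), Atp5k 59.4 and 544 TPM, Atp5l 25.6 and 488 TPM, and Atp5j2 18.7 and 215 TPM (mean 117 ± 139). Atp5s, which codes for coupling factor B rather than a core subunit, was lowest by mean, at 5.36 and 4 TPM (mean 4.68 ± 0.962).

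**Figure D1:**
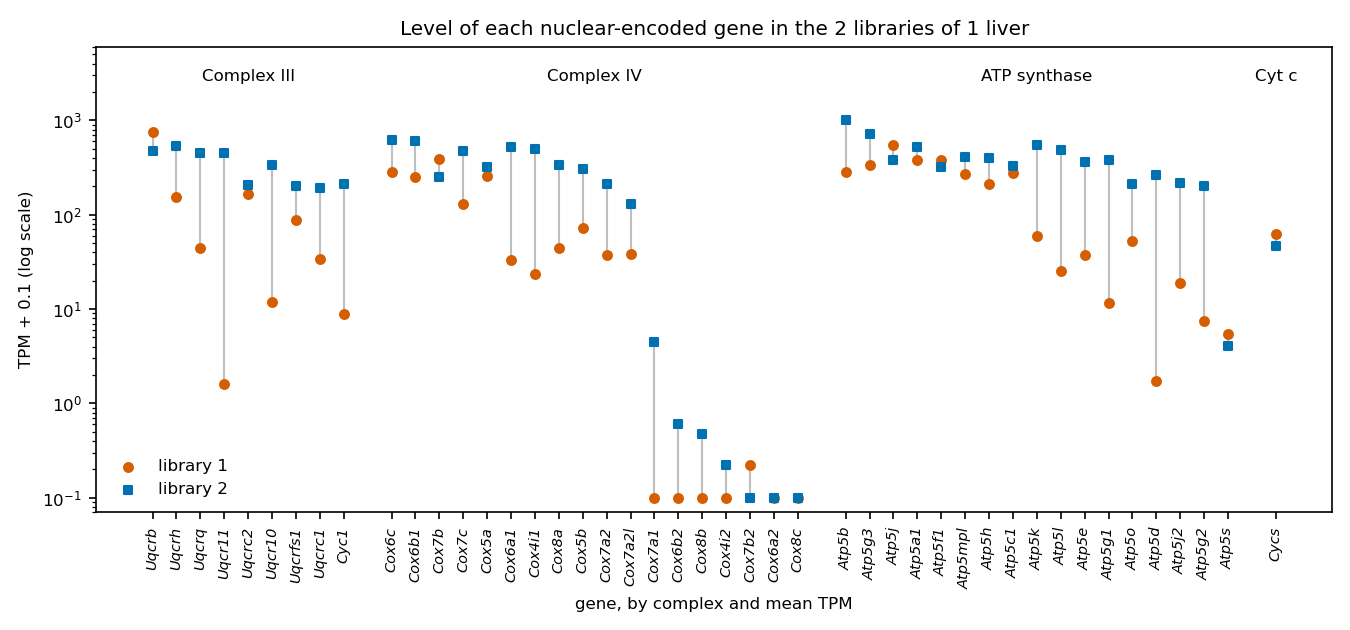
TPM plus 0.1 (log axis) of each of the 45 members, by complex and mean TPM, with a circle for library 1, a square for library 2 and a grey line joining them. In library 2 the 9 complex III genes lie between 193 and 529 TPM, and in library 1 between 1.5 and 749 TPM.

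The subunits of complexes III and IV were closer to each other in level in library 2. The highest complex III gene was 2.74-fold above the lowest there and 499-fold above it in library 1. For the 11 detected complex IV genes the corresponding ratios were 4.83 and 16.7. For ATP synthase they were 250 and 337, with Atp5s the lowest gene in library 2 and Atp5d in library 1, and the SD of log2 TPM over its 17 genes was 1.71 in library 2 and 2.59 in library 1. Over all 38 detected members the SD of log2 TPM was 2.28 in library 1 and 1.30 in library 2. The same SD over the 8456 nuclear protein-coding genes detected in both was 2.07 and 2.13, so the narrowing was seen in the members and not over all detected genes. No test of that difference was made.

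Liver forms made up nearly all of each paired complex IV subunit. For Cox6a, the liver form Cox6a1 had 33.1 TPM in library 1 and 523 TPM in library 2, from 293 and 3098 counts. Its muscle form Cox6a2 (chromosome 7, 128205435 to 128206387, GRCm38) had 0 counts in both. Against a floor of 3 counts, Cox6a1 was at least 120-fold higher than Cox6a2 in library 1 and at least 1266-fold higher in library 2. The exact (Clopper-Pearson) 95% upper limit on the muscle share of Cox6a counts was 1.25% and 0.119%. Intervals and floors here cover counting error only.

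For Cox7a, the liver form Cox7a2 had 37.8 and 214 TPM. The muscle form Cox7a1 had 0 counts in library 1, where Cox7a2 was at least 52.4-fold higher in TPM, and 12 counts, or 4.34 TPM, in library 2. That put Cox7a1 at 1.99% of the Cox7a TPM in library 2 and 0.637% of its counts (exact 95% interval 0.33 to 1.11%). The deposited TPM interval for Cox7a1 in library 2 ran from 2.20 to 6.87. It was the only muscle form above 1 count in either library. The mean Cox7a2 share of the pair was 99.0% of TPM, with 98.0% in library 2.

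For Cox8, the liver form Cox8a had 44.0 and 337 TPM, and the muscle form Cox8b had 0 counts and 1 count. Cox8a was at least 60.3-fold higher in library 1, and Cox8b was 0.0537% of the pair's counts in library 2 (exact 95% interval 0.00136 to 0.299%). Cox8c, a testis form, had 0 counts in both, and Cox8a was at least 98.0-fold and 502-fold higher.

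The remaining forms from lung and testis were at or under the floor. Cox4i2, best known from lung, had 0 counts and 1 count beside 226 and 4227 for Cox4i1. The testis forms Cox6b2 and Cox7b2 had 0 and 2 counts and 1 and 0 counts. Cox6b1 was at least 552-fold above Cox6b2 in library 1, and Cox7b at least 455-fold above Cox7b2 in library 2. Coding sequences of the 10 pairs of related members compared shared 59.1 to 75.9% of bases and no 25-base word, so no coding stretch of that length matched both forms.

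Markers of the tissues that use the other forms were low. The 10 skeletal muscle markers summed to 0.18 and 3.50 TPM, from 7 and 45 counts, with Myh2 and Myh4 at 0 in both. Of the 6 heart markers, Myh6, Myh7 and Nppa were at 0 in both, and the list summed to 0.08 and 1.49 TPM. The brown adipocyte markers Ucp1 and Cidea were at 0, and the third, Elovl3, had 8.37 and 19.9 TPM. Smooth muscle markers were present, at 1.43 and 10.8 TPM over 5 genes, and testis markers summed to 0.54 and 2.93 TPM. Cox7a1 and the summed muscle, heart, smooth muscle and testis markers were all higher in library 2. The median GC content of these marker lists ran from 53.4% for smooth muscle to 55.3% for heart. Nuclear protein-coding genes had a median log2 fold of 0.67 between 50 and 55% GC and 2.65 at 55% or more (TMM, defined below). The part of these cell types and of GC content in the Cox7a1 counts was not tested. In bulk tissue, fewer cells of a type and less RNA per cell cannot be told apart.

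**Figure D2:**
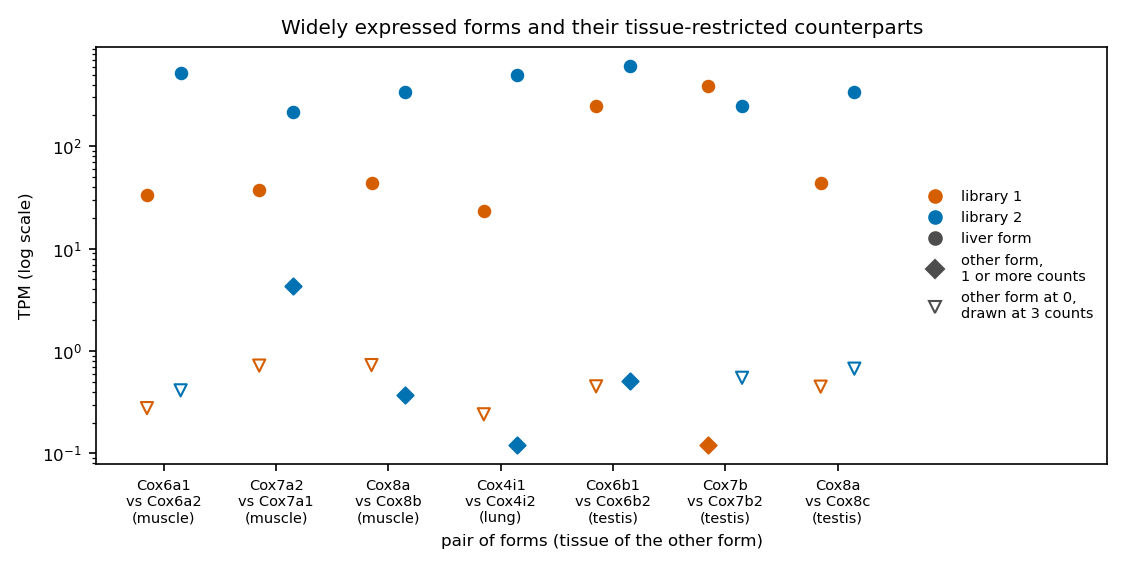
TPM of the liver form and of the other tissue form of each paired subunit in library 1 and library 2, on a log axis. Circles are liver forms, diamonds other forms with a count, and open triangles other forms at 0 counts, drawn at the floor of 3 counts. Every liver form lies far above its partner, and the nearest pair is Cox7a2 with 214 TPM and Cox7a1 with 4.34 TPM in library 2.

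The Cox8 pair shows how different the promoters of a liver and a muscle form can be, so both are printed. They run from 250 bases before to 50 bases after the RefSeq start (GRCm38.p6, 5′ to 3′ on the gene's strand). Capitals mark matches to the ETS core CCGGAAG, here as its reverse complement, in Cox8a, and to the E-box CAGCTG, the site type bound by myogenic factors, in Cox8b. Cox8a is at chr19:7217567-7217866 and Cox8b at chr7:140900397-140900696, both on the minus strand.
Cox8a: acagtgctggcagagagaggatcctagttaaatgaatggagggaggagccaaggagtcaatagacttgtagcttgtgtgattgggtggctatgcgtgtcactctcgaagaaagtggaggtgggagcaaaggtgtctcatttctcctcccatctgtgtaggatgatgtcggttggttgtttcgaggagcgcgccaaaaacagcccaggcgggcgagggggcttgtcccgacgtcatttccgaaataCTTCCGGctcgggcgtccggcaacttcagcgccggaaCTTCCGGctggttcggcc
Cox8b: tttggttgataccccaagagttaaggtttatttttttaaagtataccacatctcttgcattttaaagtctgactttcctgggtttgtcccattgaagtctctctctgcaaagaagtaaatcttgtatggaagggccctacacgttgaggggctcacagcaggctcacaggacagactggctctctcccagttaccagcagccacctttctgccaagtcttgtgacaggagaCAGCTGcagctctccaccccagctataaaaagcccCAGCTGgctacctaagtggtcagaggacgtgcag
The Cox8a promoter has a GC content of 56.0% and 19 CpG dinucleotides, and the Cox8b promoter 48.3% and 2. Cox8a holds 2 ETS matches and no E-box, and Cox8b holds 2 E-boxes and no ETS match.

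Promoters were available for 32 members, as 35 starts, and were searched on both strands. The ETS core, the site type bound by GABP (NRF-2), lay in 28.6% of member promoters (10 members) and in 8.86% of all 32851 promoters. The NRF1 pattern, GCGC and TGCGC parted by any 1 base, lay in 22.9% (8 members: Atp5c1, Atp5g2, Atp5g3, Atp5h, Atp5k, Atp5o, Cox6a1 and Uqcrc1) against 4.60%. The YY1 pattern AANATGGC was found in 11.4% (Atp5b, Atp5j, Atp5j2 and Cox7b) against 6.05%. The E-box was found in 5.71% (Atp5b and Cox8b) against 16.3%. These matches are a description of letters and not of binding. The E-box reads alike on both strands, and no pattern contains another.

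ATP synthase has its own tissue switch, in the gamma gene Atp5c1 (chromosome 2, 10056016 to 10080510, minus strand, GRCm38). A short exon before the last coding exon is kept in liver and skipped in heart and skeletal muscle. The exon has 37 bases, at chr2:10056770-10056806. The spliced transcripts of GENCODE M21 are printed 5′ to 3′ with 30 bases on each side and the exon in capitals, because the forms are defined by this exon. The annotated transcripts also differ in length elsewhere, so the estimated shares do not rest on the junction alone.
Atp5c1 with the exon: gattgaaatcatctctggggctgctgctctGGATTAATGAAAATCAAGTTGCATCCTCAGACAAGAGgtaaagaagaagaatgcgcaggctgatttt
Atp5c1 without the exon: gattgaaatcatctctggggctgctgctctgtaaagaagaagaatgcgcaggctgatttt
Coding sequence continues for 4 bases past the upstream exon with the exon kept and for 1 base when it is skipped, giving 894 and 891 coding bases before the stop.

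Most Atp5c1 was of the liver type, with the exon. Transcripts with it held 239 of the gene's TPM in library 1 and 295 in library 2, and those without it 38.3 and 34. The share with the exon was 86.2% and 89.7% of TPM (mean 87.9% ± 2.46, SD, n = 2), or 87.5% and 90.7% of counts. The muscle-type Atp5c1-201, which lacks the exon, had 765 and 458 estimated counts and isoform shares of 13.81% and 10.29%. The libraries differed by a few percent, much less than for most member levels. Unlike the paired complex IV genes, the muscle-type form of Atp5c1 was present in both libraries, at TPM values above the summed skeletal muscle markers.

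Subunit c, of the membrane rotor, has 3 genes that encode the same mature protein with different import signals. Atp5g3 held 94.7% of their summed TPM in library 1 and 55% in library 2, with 337 and 715 TPM (mean 526 ± 267, SD, n = 2). Atp5g1 held 3.19% and 29.5%, with 11.4 and 383 TPM. Atp5g2 held 2.07% and 15.5%, with 7.38 and 202 TPM (mean 105 ± 138). The order of the 3 genes was the same in both libraries, but the share of each moved more than for any tissue pair. GC content, as an unweighted mean over protein-coding transcripts, was 50.5% for Atp5g3, 51.3% for Atp5g1 and 56.8% for Atp5g2. Their main transcripts had 50.4%, 56.4% and 56.6%.

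The libraries were next compared gene by gene over the whole table. Folds are library 2 over library 1 from rounded expected counts scaled by the trimmed mean of M-values (TMM), and a gene was called where the log2 fold was 1 or more in either direction. Of the 38 members whose rounded counts summed to 20 or more, 18 were higher in library 2, 3 were lower (Uqcrb, Cycs and Atp5s) and 17 were not called. Over all 12728 genes tested, 33.0% were higher and 24.0% lower. The median log2 fold was 0.88 for members and 0.04 over all genes. Scaled by total expected count, 23 members were higher and 0 lower, with a median of 1.46 against 0.62 over all genes and background rates of 42.2% higher and 7.73% lower. By the ratio of deposited TPM, 26 were higher and 0 lower, with background rates of 46.4% and 2.65%. The 3 lower calls therefore depend on the scaling. By complex, complex III had 5 higher and 1 lower of 9 with a median of 3.26, complex IV 5 higher and 0 lower of 11 with 0.86, and ATP synthase 8 higher and 1 lower of 17 with 0.85.

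The largest fold among members belonged to Uqcr11, with 9 counts in library 1 and 1798 in library 2, a log2 fold of 7.25 (exact 95% counting interval 6.39 to 8.45). Atp5d followed at 6.40 (5.89 to 7.01). Both genes were abundant in library 2 and close to undetected in library 1, where counting error is widest. Uqcr10 (70 and 1317 counts), Cox4i1 (226 and 4227) and Atp5g2 each had a log2 fold of 3.90, and Atp5g1 3.86. In the other direction, Uqcrb had 6016 and 2536 counts and a log2 fold of -1.57 (-1.64 to -1.50). Cycs had 4048 and 1786 counts and a log2 fold of -1.50 (-1.58 to -1.42). Atp5s had 159 and 80 counts and -1.31 (-1.72 to -0.92). Atp5j at -0.99, Atp5f1 at -0.87 and Atp5c1 at -0.64 came next and were not called. The log2 ratio of deposited TPM was -0.55 for Atp5j, -0.24 for Atp5f1 and 0.25 for Atp5c1, so the direction for Atp5c1 depends on the scaling. The same held for Cox5a (TMM -0.57, TPM 0.33), Atp5mpl (-0.33 and 0.58) and Uqcrc2 (-0.32 and 0.34).

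Member folds followed GC content. Across the 38 tested members, GC ran from 40.8% in Cycs to 61.8% in Cyc1, and its rank correlation with the fold was 0.79, beside 0.87 over all nuclear protein-coding genes tested. These points share the same 2 libraries. All 9 members with a GC content of at least 55% were higher in library 2 (Cox8a, Cox6a1, Uqcrc1, Cyc1, Cox4i1, Atp5g2, Uqcr10, Atp5d and Uqcr11), with a median log2 fold of 3.90. The nuclear protein-coding genes of that GC class had a median of 2.65, above the call limit of 1, so most of them were higher too. None of the 5 members under 45% was higher and 2 were lower (Uqcrb and Cycs), with a median of -0.87 against -1.35 for their class. Between 50 and 55%, 8 of 15 members were higher, with a median of 1.53 against 0.67 for the class. Between 45 and 50% the 1 higher member of 9 was Atp5l, and the medians were 0.28 and -0.56. The share of genes called in each class is not given here, so the member counts are not shown to differ from it.

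The coding starts of Uqcr11 and Uqcrb, the members with the highest and lowest fold, show the contrast in letters. Both genes are on the minus strand, Uqcr11 on chromosome 10 and Uqcrb on chromosome 13, and the sequences are the first 168 coding bases of the named GENCODE M21 transcripts, with every G and C in capitals.
Uqcr11-201: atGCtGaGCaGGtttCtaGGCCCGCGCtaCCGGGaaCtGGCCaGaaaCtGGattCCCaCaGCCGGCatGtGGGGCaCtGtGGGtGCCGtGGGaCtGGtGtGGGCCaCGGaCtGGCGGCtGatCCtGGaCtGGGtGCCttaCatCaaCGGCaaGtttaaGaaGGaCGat
Uqcrb-201: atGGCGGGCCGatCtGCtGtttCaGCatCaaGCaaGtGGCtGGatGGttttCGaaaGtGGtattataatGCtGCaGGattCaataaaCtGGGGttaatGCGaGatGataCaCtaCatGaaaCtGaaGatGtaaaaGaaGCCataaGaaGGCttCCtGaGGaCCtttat
Uqcr11 is 60.7% G or C over this stretch, which is its whole coding sequence without the stop, and Uqcrb is 42.9%.

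With the smooth curve of fold on GC content subtracted, 13 members were higher and 1 lower (Atp5j, -1.33), with a median of 0.49. Over all genes 11.5% were then higher and 11.4% lower. Cyc1 moved from 3.69 to -0.18, Cox6a1 from 3.08 to -0.05, Cox8a from 2.03 to -0.98 and Cycs from -1.50 to 0.00. Uqcr11 moved from 7.25 to 4.11 and Atp5d from 6.40 to 2.76, and both were still called higher. Atp5l (3.84) and Atp5g1 (3.49) changed little. The curve used an unweighted mean GC over a gene's protein-coding transcripts, 51.3% for Atp5g1 and 51.2% for Atp5j. Atp5g1-202, with 96.01% and 98.08% of that gene's TPM, has 56.4% GC. Atp5j-208, the main Atp5j transcript in library 1, has 39.5%. The values for these genes after the curve depend on the GC content assigned, and a curve on weighted GC was not fitted.

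**Figure D3:**
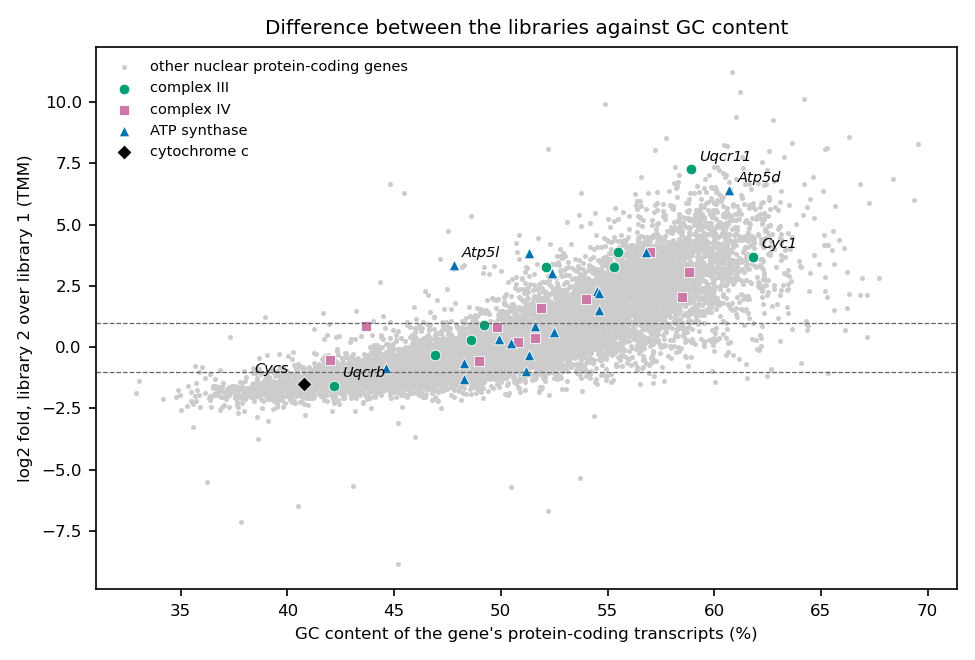
Log2 fold of library 2 over library 1 (TMM) against the GC content of a gene's protein-coding transcripts in percent, with members marked by complex, other nuclear protein-coding genes in grey and dashed lines at a log2 fold of 1 and -1. Member folds are higher at higher GC content, from Uqcrb at -1.57 to Uqcr11 at 7.25, and Atp5l lies above its neighbours at 3.35.

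Atp5l (chromosome 9, 44912557 to 44920742, minus strand), for subunit g of the membrane part, shares sequence with annotated pseudogenes. It had 191 and 2439 counts, and its 5 pseudogene copies, each sharing at least 50% of 25-base words, had 1694 and 650. The copies thus held 89.9% of the combined counts in library 1 and 21% in library 2. Nearly all copy counts were on 1 copy, Gm10221 (1688.4 and 649.87), which shares 100% of its 25-base words with Atp5l. With copies and gene added, the counts were 1885 and 3089 and the log2 fold was 0.39 in place of 3.35. The division of reads between Atp5l and its copies is uncertain, and so is its level in library 1. The deposited posterior SD of the Atp5l count was 23.56 and 63.02. Copies were found for 12 members, 21 in all. They held 2.24% and 0.602% of all member and copy counts, and apart from Atp5l the highest share of counts was 18% for Atp5g2 in library 1. In TPM, the Cox7c copy Gm12338 stood out, with 96.4 and 119 beside 131 and 479 for Cox7c. It shares 100% of its 25-base words with Cox7c, and the division of reads between them was not tested.

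Isoform shares also differed between libraries. The 45 members have 167 transcripts in the tables, and 31 members have at least 2. Of the 29 such members with a TPM of at least 1 in both libraries, 19 (65.5%) had the same main transcript in both, beside 69.7% of 6364 nuclear protein-coding genes. The members' share was near the background. In the 10 members that switched (Uqcrc1, Cox7b, Atp5a1, Atp5h, Atp5f1, Uqcr10, Uqcrq, Atp5j, Cox5b and Atp5j2), the main transcript of library 1 was the shorter one in 10 of 10 and lower in GC in 8. It was not annotated as protein-coding in 7, whereas the main transcript of library 2 was protein-coding in each. The same counts are not given here for all genes that switched, so they are not shown to be particular to the members.

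Uqcrc1, Cox7b and Atp5a1 had the largest changes of share. Uqcrc1-201 held 5.20% of the gene's TPM in library 1 and 96.79% in library 2, while Uqcrc1-205, of 580 bases, held 74.87% and 0.91%. Cox7b-203, annotated as a retained intron, held 90.31% and 6.11%, and the coding Cox7b-201 held 9.69% and 93.89%. Atp5a1-204, annotated for nonsense-mediated decay, held 69.47% and 0.00%, and Atp5a1-201 held 30.13% and 96.85%. Retained introns and decay targets are not expected to give the full protein. In Uqcrc1, Atp5h and Atp5j2 the main transcript of library 1 was itself protein-coding. Uqcr10-201 held 25.84% and 91.55%, Atp5f1-201 2.78% and 68.91%, and Atp5h-208 70.70% and 4.29%. Cox4i1-201, the main transcript in both libraries, still moved from 39.25% to 97.85%. Atp5j kept a large retained-intron share in both, with 87.81% and 37.71% for Atp5j-208. Over the 29 members the median of the largest change in share was 16.47 percentage points. Transcripts not annotated as protein-coding held over 20% of TPM in 10 members in library 1 and in 3 in library 2. The share of all genes over that limit is not given here, so this too is not shown to be particular to the members.

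**Figure D4:**
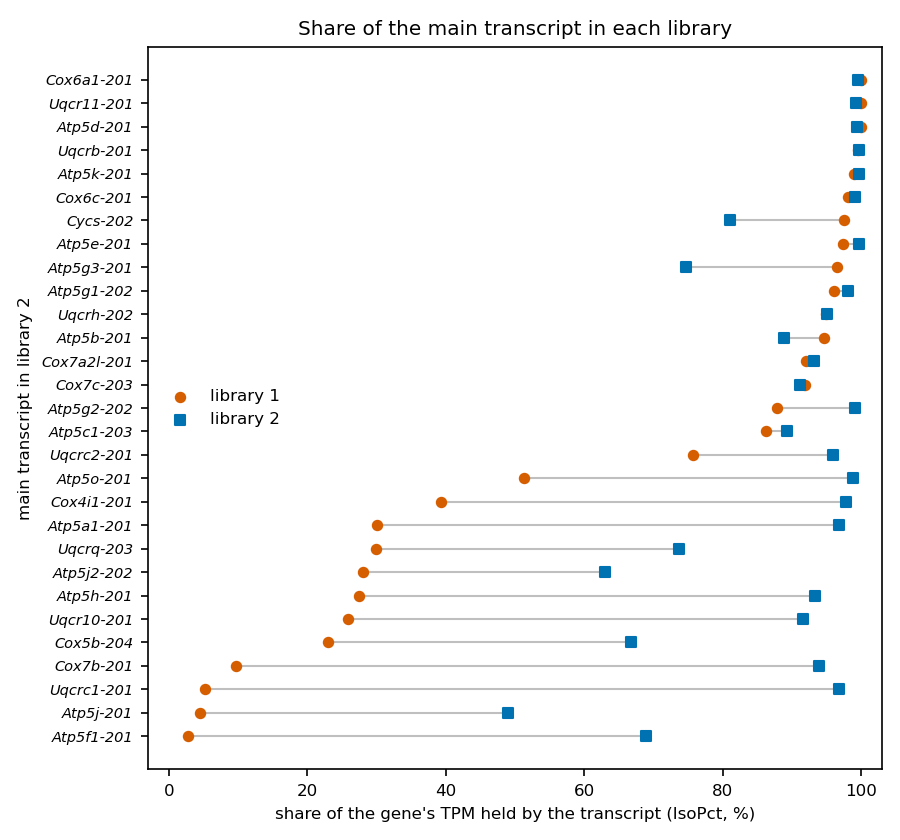
Share of the gene's TPM (percent) held in library 1 (circles) and library 2 (squares) by the main transcript of library 2, for the 29 members compared. Uqcrc1-201 goes from 5.20% to 96.79% and Atp5f1-201 from 2.78% to 68.91%, whereas Atp5c1-203 stays at 86.19% and 89.29%.

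Transcripts of these genes are short, which bears on their TPM. The median deposited length of the members was 572 bases in library 1 and 685 in library 2, against 2410 and 2441 for the detected nuclear protein-coding genes. Dividing by the full annotated length in place of the effective length lowered the mean share of the members from 1.73% to 1.46%. Atp5mpl was most affected among the abundant members, with a TPM 1.42 and 1.58 times its length-only level, and Atp5b had 0.793 and 0.874 times. Atp5k, Atp5e and Uqcr10, also among the shortest effective lengths in library 2, had 1.56, 1.39 and 1.35 times there.

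The nuclear genes that build or regulate these complexes were called in both directions. Among 6 complex III assembly genes, Uqcc2 (log2 fold 2.88), Uqcc3 (3.72) and Bcs1l (1.02) were higher and Ttc19 (-1.32) was lower. Of 25 complex IV assembly genes tested, 9 were higher, 5 lower and 11 not called, shares near the 33.0% and 24.0% over all genes. Sco2, a copper chaperone, was highest with 2.28 and 78.0 TPM (4.19), and Cox20, a chaperone of the mitochondrial subunit Cox2, lowest (-1.95). Ndufa4, now counted as a complex IV subunit, was abundant at 759 and 1016 TPM and not called. Of 6 genes tested on the ATP synthase assembly and inhibitor list, 2 were higher (Fmc1, 5.14, and Atpaf2, 1.49) and 3 lower (Atpaf1, Tmem70 and Usmg5). This list was not limited to assembly factors, and Usmg5 on it was abundant at 546 and 432 TPM. Atpif1, the inhibitor of reverse ATP hydrolysis, had 23.6 and 52.3 TPM and was not called. With total count scaling, complex IV assembly had 13 higher and 1 lower, and the lower calls of the complex III assembly, ATP synthase assembly and regulator lists all fell to 0.

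Of 8 transcriptional regulators, Esrra, a nuclear receptor for oxidative genes, had 1 count in library 1 and 394 in library 2, and Ppargc1b, a coactivator, had 5 and 57. Gabpa (-1.37), Yy1 (-1.32) and Ppargc1a (-1.16) were lower with TMM but not with total count scaling, and Nrf1, Gabpb1 and Tfam were not called. The GC content was 63.3% for Esrra, 58.5% for Ppargc1b, 42.5% for Gabpa, 46.5% for Ppargc1a and 50.7% for Yy1. Yy1 was lower although nuclear protein-coding genes between 50 and 55% GC had a median log2 fold of 0.67. The 6 mitochondrially encoded partners were all lower in library 2 under both scalings, with a median log2 fold of -2.58 (TMM). Their summed TPM was 305594 and 114074, so the measured ratio of nuclear to mitochondrial subunit RNA differed between 2 technical libraries of 1 liver. The median GC content of these 6 genes was 38.7%, and mitochondrial genes were left out of the GC curve. The part of GC content in their folds was not tested.

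Other sets of short housekeeping transcripts had medians on both sides of that of the members. The 46 nuclear Nduf genes of complex I, which feeds electrons to complex III, had 22 higher and 4 lower with a median log2 fold of 0.82. The 77 mitochondrial ribosomal protein genes had 30 higher and 5 lower with 0.54, and the 86 cytosolic ribosomal protein genes tested had 55 higher and 0 lower with 1.73. After the GC curve the medians were 0.49 for the members, 0.52 for the Nduf genes, 0.37 for the mitochondrial and 1.13 for the cytosolic ribosomal genes. The members were thus not shown to differ from the Nduf genes, and no test of these medians was made.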

How the data were processed

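PolyA RNA of 1 liver was measured in 2 technical libraries, which form 1 group. Per the file headers, the assembly was mm10 and the annotation M4. Quantifier, aligner and strandedness: not given in the sources used here. The column names match RSEM output. Overlapping and antisense genes may share reads. The deposited expected counts are estimated counts per gene or transcript. The deposited TPM values are per effective length and on one common total. The deposited isoform shares are a percent of the gene's TPM. The FPKM values the authors deposited were not used. Posterior SDs, TPM intervals (level not stated) and lengths are deposited values. Gene and transcript tables agree within rounding for the members.

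Symbols, coordinates, lengths and transcript sequences came from GENCODE M21 (GRCm38), and promoters from RefSeq (GRCm38.p6). Rounded expected counts of genes with 20 or more over both libraries were scaled by TMM (edgeR 4.0.16, R 4.3.3, factors 0.818 and 1.22), with a prior count of 0.5. With 1 library on each side no test was possible, and intervals are exact binomial at 95%. DESeq2 1.42.0 size factors, total count, TPM ratio with a pseudocount of 0.1, other minimums and a loess curve on GC (span 0.3) were alternatives. Folds were tested on simulated data. Python 3.11.15, pandas 2.3.3, scipy 1.17.1 and Biopython 1.88 were used.

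Members and lists were chosen with earlier results of these data known. The members described by name with their values are the tissue forms, the 4 highest and 3 lowest members of each complex, the 6 largest folds each way, the 6 largest isoform changes and the 6 shortest effective lengths in library 2 (Cox8b, Cox7a1, Atp5mpl, Atp5k, Atp5e and Uqcr10). The E-box pattern, the pseudogene copies and the count of protein-coding transcripts only were added after seeing the data. The listed symbol 2010107E04Rik had no match. It is an older symbol of Atp5mpl.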

Additional observations from a re-analysis of the deposited data

How the results depend on the processing

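The count of members lower in library 2 was 3 and became 0 with total count scaling, 0 with the TPM ratio and 1 after the GC curve. Over all genes the shares lower were 24.0%, 7.73%, 2.65% and 11.4%, in that order. The cause of the counts of 0 was not tested. The count of members higher ranged from 13 to 26 over the alternatives, around 18, the lowest after the GC curve and the highest with the TPM ratio. Over all genes, 11.5% were higher after the GC curve, 33.0% with TMM and 46.4% with the TPM ratio. The median log2 fold of 0.88 became 1.46 with total count scaling, 1.85 with the TPM ratio, 1.5 with no minimum count and 0.49 after the GC curve. Over all genes the median was 0.04 with TMM. It was 0.62 with total count scaling, 0.84 with the TPM ratio, 0.12 with no minimum count and -0.01 after the GC curve. Part of the rise in the member median with total count scaling and the TPM ratio was thus shared by all genes. With no minimum count, 43 members were tested in place of 38. Those added were Cox7a1, Cox6b2, Cox8b, Cox4i2 and Cox7b2, each with 12 or fewer counts. The members' share of nuclear protein-coding TPM, 1.73%, became 0.693% in expected counts and 1.46% in counts per annotated length. It was 1.46% with only the protein-coding transcripts of the members, an alternative chosen after seeing the data. There the total over nuclear protein-coding genes still held all their transcripts, so part and whole were not limited alike. Adding pseudogene copies, also chosen after seeing the data, gave 17 higher and 3 lower. Leaving out 1 library in turn gave 98.0 to 100% for Cox7a2, 99.9 to 100% for Cox8a, 100% for Cox6a1, 86.2 to 89.7% for the gamma exon and 1.54 to 1.92% for the member share. For the folds between libraries a library could not be left out. Mean TPM moved beyond 1 SD in 4 of 45 members with counts per length and in 4 of 45 with protein-coding transcripts only. This SD is the spread between the 2 libraries and was above the mean for many members, so the measure can miss large moves. Uqcr11, for one, went from 225 to 168 with counts per length, within its SD of 316. Counts under the floor of 3 limit the muscle forms, and 1 animal limits every value.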
